A study of Mus musculus with 52 samples.

Results

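The 44 genes described here are a module of G2/M and mitosis genes, chosen by symbol from a fixed list, and all 44 were found among the 49466 genes of both count tables. They were read one daughter at a time after single BFU-E founders of the mouse had divided. A BFU-E (burst-forming unit-erythroid) is an early progenitor of red blood cells. Here it came from C57/Bl6J embryos of embryonic day 14.5, whose fetal livers were used. Cells with markers of mature blood lineages, Sca-1, CD16/32 or CD41 were depleted first, among them cells bound by the myeloid antibodies against Ly-6G and CD11b, and the rest was sorted with antibodies against Kit, CD71 and CD24. Each founder was put alone in a well, in medium with 100 nM dexamethasone (Dex, a synthetic glucocorticoid) or without it (NoDex), and wells in which it had divided once after 16 hours gave 2 daughters that were sequenced separately. There were 13 Dex pairs and 13 NoDex pairs, 52 libraries in all, from polyadenylated RNA. The labels name no animal, so founders may share an embryo or a litter.

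A cell enters mitosis when cyclin-dependent kinase 1, bound to an A- or B-type cyclin, becomes active, with Polo-like and Aurora kinases acting beside it. The spindle then forms, the checkpoint holds the cell until every chromosome is attached, and the anaphase-promoting complex (APC/C) bound to Cdc20 marks cyclin B and securin for destruction. Transcripts of these genes build up late in the cycle and fall after division, so a cell's level of them follows its place in the cycle. The late cell cycle genes share promoter elements, the cell cycle genes homology region (CHR), which the MuvB complex binds, and the CCAAT box, which NF-Y binds. Fetal liver erythroid progenitors divide rapidly, and glucocorticoids are known to extend the phase in which BFU-E cells self-renew.

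The promoters of the 6 genes called in the tests below are shown as a description of their sequence. They were taken from RefSeq (GRCm38.p6), run from 250 bases before to 50 bases after the annotated start, and carry in capitals the CHR letters TTTGAA, which read TTCAAA on the other strand, and the CCAAT box letters, which read ATTGG there. In the Cdca8 window a CHR match and an ATTGG match overlap.
Plk1: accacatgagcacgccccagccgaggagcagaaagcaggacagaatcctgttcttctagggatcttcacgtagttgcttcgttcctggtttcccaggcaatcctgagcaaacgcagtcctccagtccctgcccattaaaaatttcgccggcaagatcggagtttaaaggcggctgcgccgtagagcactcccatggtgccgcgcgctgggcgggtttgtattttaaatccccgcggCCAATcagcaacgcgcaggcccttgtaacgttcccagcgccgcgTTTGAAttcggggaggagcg
Bub1b: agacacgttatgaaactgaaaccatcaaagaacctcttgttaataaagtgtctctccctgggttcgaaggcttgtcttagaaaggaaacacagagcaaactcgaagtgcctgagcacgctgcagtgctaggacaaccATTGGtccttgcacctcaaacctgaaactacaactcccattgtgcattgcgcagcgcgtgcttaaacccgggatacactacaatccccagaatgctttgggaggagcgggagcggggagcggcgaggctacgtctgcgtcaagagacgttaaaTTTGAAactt
Kif2c: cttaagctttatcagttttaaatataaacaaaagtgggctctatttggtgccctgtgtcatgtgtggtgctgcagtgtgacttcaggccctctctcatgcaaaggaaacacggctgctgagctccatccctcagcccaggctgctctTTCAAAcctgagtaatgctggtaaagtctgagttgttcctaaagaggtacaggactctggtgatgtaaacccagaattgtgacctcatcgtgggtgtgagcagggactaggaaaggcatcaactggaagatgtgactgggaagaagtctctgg
Kif4: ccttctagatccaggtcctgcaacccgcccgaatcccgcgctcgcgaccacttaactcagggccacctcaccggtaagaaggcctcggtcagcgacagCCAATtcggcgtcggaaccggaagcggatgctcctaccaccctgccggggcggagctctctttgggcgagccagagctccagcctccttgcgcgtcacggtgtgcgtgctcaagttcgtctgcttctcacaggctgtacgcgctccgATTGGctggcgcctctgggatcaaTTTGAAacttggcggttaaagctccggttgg
Cdc20: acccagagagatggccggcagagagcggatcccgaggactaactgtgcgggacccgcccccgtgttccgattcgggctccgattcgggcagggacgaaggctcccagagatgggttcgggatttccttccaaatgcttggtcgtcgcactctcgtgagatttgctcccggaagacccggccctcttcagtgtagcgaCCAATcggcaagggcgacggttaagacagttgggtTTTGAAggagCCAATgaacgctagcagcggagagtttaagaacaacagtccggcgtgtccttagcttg
Cdca8: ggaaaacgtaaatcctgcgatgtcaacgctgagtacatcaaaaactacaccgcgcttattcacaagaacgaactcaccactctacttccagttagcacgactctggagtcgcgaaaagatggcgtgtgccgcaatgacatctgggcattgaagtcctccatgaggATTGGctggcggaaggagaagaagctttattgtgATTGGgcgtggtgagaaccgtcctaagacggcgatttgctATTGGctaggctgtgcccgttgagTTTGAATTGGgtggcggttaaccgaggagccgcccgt

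These windows lie at chr7:122159185-122159484 (Plk1, plus strand), chr2:118597961-118598260 (Bub1b, plus strand), chr4:117178723-117179022 (Kif2c, minus strand), chrX:100625815-100626114 (Kif4, plus strand), chr4:118437294-118437593 (Cdc20, minus strand) and chr4:124936868-124937167 (Cdca8, minus strand). For Kif2c, Kif4, Cdca8 and Cdc20 the RefSeq start lies inside the gene as GENCODE M21 draws it, and for Kif2c, Kif4 and Cdca8 the whole window does. Whether such a window is the main promoter of its gene was not tested. A window was found for 36 of the 44 genes. A CHR match stood in 27 of these 36 windows (75%), beside 20.2% of the windows of all 27025 genes and 14.3% of those of 7042 genes that entered the lineage test described below. A CCAAT match stood in 28 of 36 (77.8%), beside 41.1% and 43.3%. Both stood in 23 of 36 (63.9%), beside 8.97% and 7.17%. All 6 genes shown hold a CHR match, at base 31 after the start in Plk1 and 18 bases before it in Cdc20, for example, and Kif2c is the 1 of the 6 with no CCAAT match. Such a match describes letters in a window and not a bound site.

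Of the 26 pairs, 23 entered the main comparisons: 13 Dex and 10 NoDex pairs in which both daughters held at least 100000 counts. NoDex pairs 4, 7 and 12 were left out because 4 of their 6 libraries were nearly empty. The 46 libraries kept held 210383 to 5606500 counts and 3886 to 9473 detected genes, with median totals of 2577701 counts for Dex and 2805170.5 for NoDex. Not every library carried the transcripts its label names. In 8 libraries, both daughters of Dex pairs 6 and 7 and of NoDex pairs 9 and 10, the mean of 15 granulocyte and monocyte genes was above that of 12 erythroid genes. These 4 pairs are called myeloid-like, and their groups were defined from the data. Their myeloid means were 3.24 to 5.60 log2(CPM + 1) and their erythroid means 0.803 to 1.72, against 0 to 1.99 and 3.00 to 8.97 in the 36 libraries of 18 other pairs. CPM is the count of a gene divided by the total of its library and scaled to a common total, the usual counts-per-million unit. At least 3 erythroid markers reached 10 CPM in 0 of the 8 myeloid-like and in 36 of the 36 other libraries. For the myeloid list this held in 8 of the 8 myeloid-like and in 2 of the 36 other libraries. The first daughter of Dex pair 12, counted among the others, held 5 of the 15 myeloid genes at 10 CPM or more. Its level of the myeloid gene Mpo was 12.5 and that of the erythroid gene Gata1 3.93 log2(CPM + 1). Dex pair 10 was mixed: 1 daughter was myeloid-like and the other lay at the border, with means of 5.02 log2(CPM + 1) for the myeloid and 5.03 for the erythroid list. At least 3 of 7 megakaryocyte markers reached 10 CPM in 0 of 8 myeloid-like and 6 of 36 other libraries, while 0 libraries of either class held 3 mast cell, lymphoid, macrophage or hepatocyte markers. In Dex pair 8, counted among the others, the megakaryocyte means were 4.42 and 3.17 and the erythroid means 3.19 and 3.00 log2(CPM + 1).

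The G2/M genes were widely but unevenly present. Each reached 10 CPM in 14 (Ttk, a checkpoint kinase) to 45 (Birc5 and Cks2) of the 46 libraries, and 12 of the 44 genes did so in at least 40. The mean of log2(CPM + 1) over the 44 genes is called the G2/M score below, and the score of a pair is the mean of its daughters. Cell scores ran from 1.65 to 7.47 with a median of 6.32 (n = 46), and a cell held 7 to 43 of the 44 genes at 10 CPM or more. A pair score below 5 was found in 7 of the 23 pairs. These were the 4 myeloid-like pairs, Dex pairs 11 and 12 and NoDex pair 8. The score went with the number of genes detected in a library (Pearson r = 0.69, Spearman rho = 0.73, n = 46 cells that share founders), with its log2 total at r = 0.19, and the part of the number of detected genes in the results below was not tested.

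**Figure D1:**
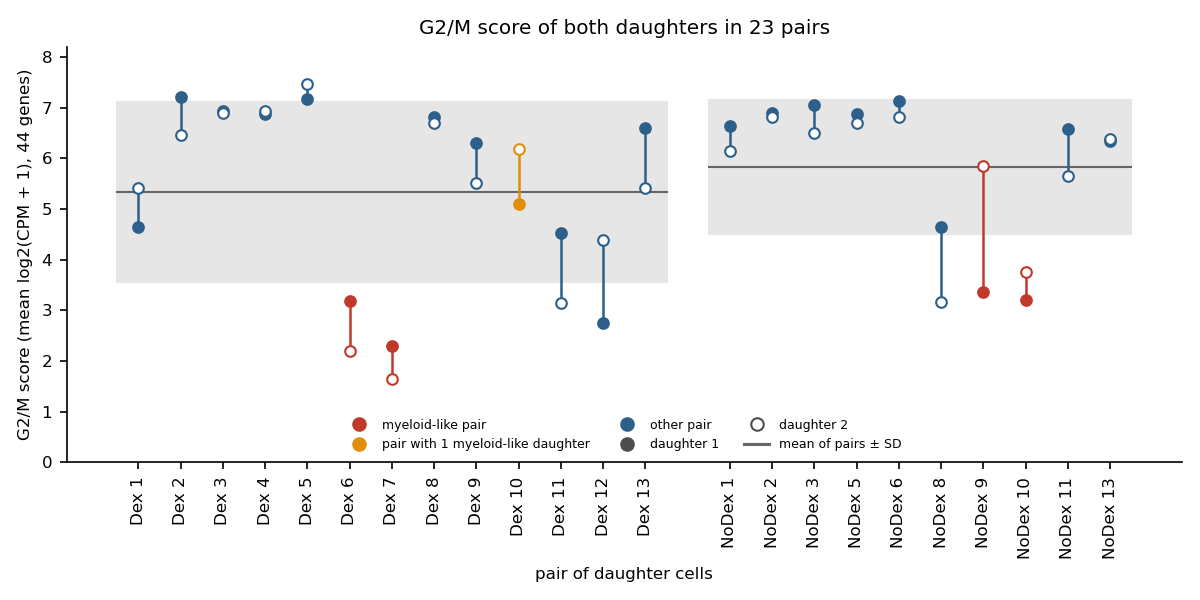
G2/M score of daughter 1 (filled) and daughter 2 (open) of each pair, Dex pairs left and NoDex pairs right, coloured by lineage class, with the mean of the pair scores (line) and their SD (band). The 4 myeloid-like pairs hold 7 of the 10 libraries with a score of 3.75 or less, and the second daughter of NoDex pair 9 lies at 5.85.

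The first comparison asked whether dexamethasone changed the module. No G2/M gene was called between treatments, and the scores overlapped. The score was 5.34 ± 1.78 in Dex pairs (SD, n = 13) and 5.83 ± 1.32 in NoDex pairs (SD, n = 10), a difference of -0.49 that was smaller than either SD. Dex pairs ran from 1.97 to 7.32 with a median of 5.91, NoDex pairs from 3.48 to 6.98 with a median of 6.38. The highest and the lowest pair scores were both Dex. Without pairs that hold a myeloid-like daughter the score was 5.91 ± 1.34 in Dex (SD, n = 10) and 6.27 ± 1.00 in NoDex pairs (SD, n = 8). The difference was -0.73 between the 8 Dex and 6 NoDex pairs of library plate columns 1 to 4, and -0.15 between the 5 Dex and 4 NoDex pairs of columns 5 to 7. A list of 40 G1/S genes, used for comparison, stood at 5.91 ± 0.84 in Dex pairs (SD, n = 13) and 6.50 ± 0.79 in NoDex pairs (SD, n = 10).

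Counts of the 2 daughters were summed and tested with edgeR's quasi-likelihood test, and a gene was called at a Benjamini-Hochberg adjusted p under 0.05 over all genes tested. Of the 44 genes 0 were called, and 0 of 7190 genes tested (0%). Since it called no gene at all, the test cannot tell an unchanged module from a change that it did not detect. At an unadjusted p under 0.05 there were 0 of 44 and 71 of 7190 (0.987%). DESeq2 and limma also called 0 of the 44. The fitted change was below 0 for 30 of the 44 genes, beside 48.6% of all genes, and its median was -0.25, beside 0.02 for all genes. In the pairs without a myeloid-like daughter it was below 0 for 23 of 44, beside 49.3% of all genes, with a median of -0.05. There, too, 0 of 44 and 0 of 7398 genes (0%) were called, 1 of the 44 and 152 of all genes (2.05%) having an unadjusted p under 0.05.

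By role, the levels of the entry kinases and cyclins overlapped between treatments. Cdk1, the kinase that starts mitosis, was at 1.19 to 601 CPM with a median of 282 in Dex pairs and at 82.7 to 597 with a median of 303 in NoDex pairs. Ccnb1 and Ccnb2 are its B-type cyclin partners. Ccnb1 had a median of 425 CPM in Dex and 534 in NoDex pairs, and Ccnb2 307 and 305. Reads of Ccnb1 may be shared with the pseudogene Ccnb1-ps, which the table lists apart. Cks2, a small subunit of the kinase, had a fitted log2 change of -0.42 ± 0.35 (SE), with medians of 120 CPM in Dex and 146 in NoDex pairs. Plk1, the Polo-like kinase that drives mitotic entry, had medians of 410 CPM in Dex and 352 in NoDex pairs, and pairs under 2 CPM in both groups.

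The partners of the APC/C did not separate the treatments either. Cdc20, its mitotic activator, had a lowest level of 41.1 CPM and a median of 574 in Dex pairs, and a lowest of 130 and a median of 531 in NoDex pairs. Ube2c, its ubiquitin-conjugating enzyme, had medians of 403 CPM in Dex and 412 in NoDex pairs. In the chromosomal passenger complex, which corrects faulty attachments of chromosomes, Birc5 (survivin) was the steadiest of the 44 genes between NoDex pairs, at 287 to 502 CPM, and ran from 22 to 840 CPM in Dex pairs. The medians of the kinase Aurkb were 306 CPM in Dex and 261 in NoDex pairs, and those of Cdca8 (borealin) 415 and 424.

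The checkpoint kinases were detected in fewer libraries. Bub1 reached 10 CPM in 10 of 26 Dex and 15 of 20 NoDex libraries, and its pair level had a median of 6.35 CPM in Dex and 102 in NoDex pairs. Its fitted change was -1.09 ± 1.16 (SE), and both groups held pairs at 0. Without the pairs that hold a myeloid-like daughter the medians of Bub1 were 45.8 CPM in Dex and 102 in NoDex pairs, and the fitted change was -0.63 ± 1.10 (SE). Bub1b, the checkpoint kinase that helps to hold the APC/C back, had medians of 104 CPM in Dex and 154 in NoDex pairs, and Ttk 20.9 and 1.44. At the centromere, Cenpa, the histone variant that marks it, had medians of 293 CPM in Dex and 394 in NoDex pairs. The kinetochore motor Cenpe had 51.7 and 26.9, and Nuf2, of the microtubule-binding Ndc80 complex, 50.1 and 98.1.

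Among the mitotic kinesins, the motors that build and move the spindle, Kif20a was the 1 of the 44 genes with an unadjusted p under 0.05 in the pairs without a myeloid-like daughter. Its fitted log2 change there was 1.42 ± 0.52 (SE, edgeR unadjusted p = 0.0123, adjusted p over all genes 1.00), and over all 23 pairs 0.83 ± 0.71. The size of this change depends in part on Dex pair 12, whose daughters held 2 and 1975 counts of Kif20a. Without that pair, a choice made after seeing the data, the change was 0.75 ± 0.38 (SE, edgeR unadjusted p = 0.0621), and over all pairs 0.17 ± 0.65. It ran from 0.278 to 1379 CPM with a median of 253 in Dex pairs and from 33.7 to 364 with a median of 153 in NoDex pairs, so the groups overlapped. Kif11, which pushes the spindle poles apart, had medians of 77.3 CPM in Dex and 172 in NoDex pairs, and Kif2c, which takes microtubule ends apart, 83.4 and 75.6. Of the spindle proteins, Tacc3, a microtubule-stabilising protein, was at a fitted -0.46 ± 0.39 (SE), with medians of 381 CPM in Dex and 402 in NoDex pairs. Tpx2, the activator of Aurora A, had medians of 306 and 234 CPM, and Hmmr, a spindle assembly factor, 118 and 164.

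Of the 44 genes, the cytokinesis genes Racgap1 and Ect2 had the smallest p-values of the treatment test, in opposite directions. Racgap1, a subunit of the centralspindlin complex at the midzone, was at a fitted -1.06 ± 0.75 (SE), with medians of 70.6 CPM in Dex and 197 in NoDex pairs. Ect2, the exchange factor that Racgap1 recruits, was at 1.33 ± 1.08 (SE), with medians of 67.0 and 7.48 CPM. Prc1, which bundles midzone microtubules, had medians of 163 and 150 CPM. Mki67, the proliferation marker that coats mitotic chromosomes, was at -0.71 ± 0.60 (SE), with medians of 215 and 297 CPM. Top2a, which untangles chromosomes, had medians of 274 CPM in Dex and 217 in NoDex pairs, and the condensin subunit Smc4 304 and 289. Racgap1, Ect2, Cks2, Mki67 and Tacc3 were the 5 of the 44 with the smallest p, from 0.168 to 0.25, and each had an adjusted p of 1.00 (edgeR).

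**Figure D2:**
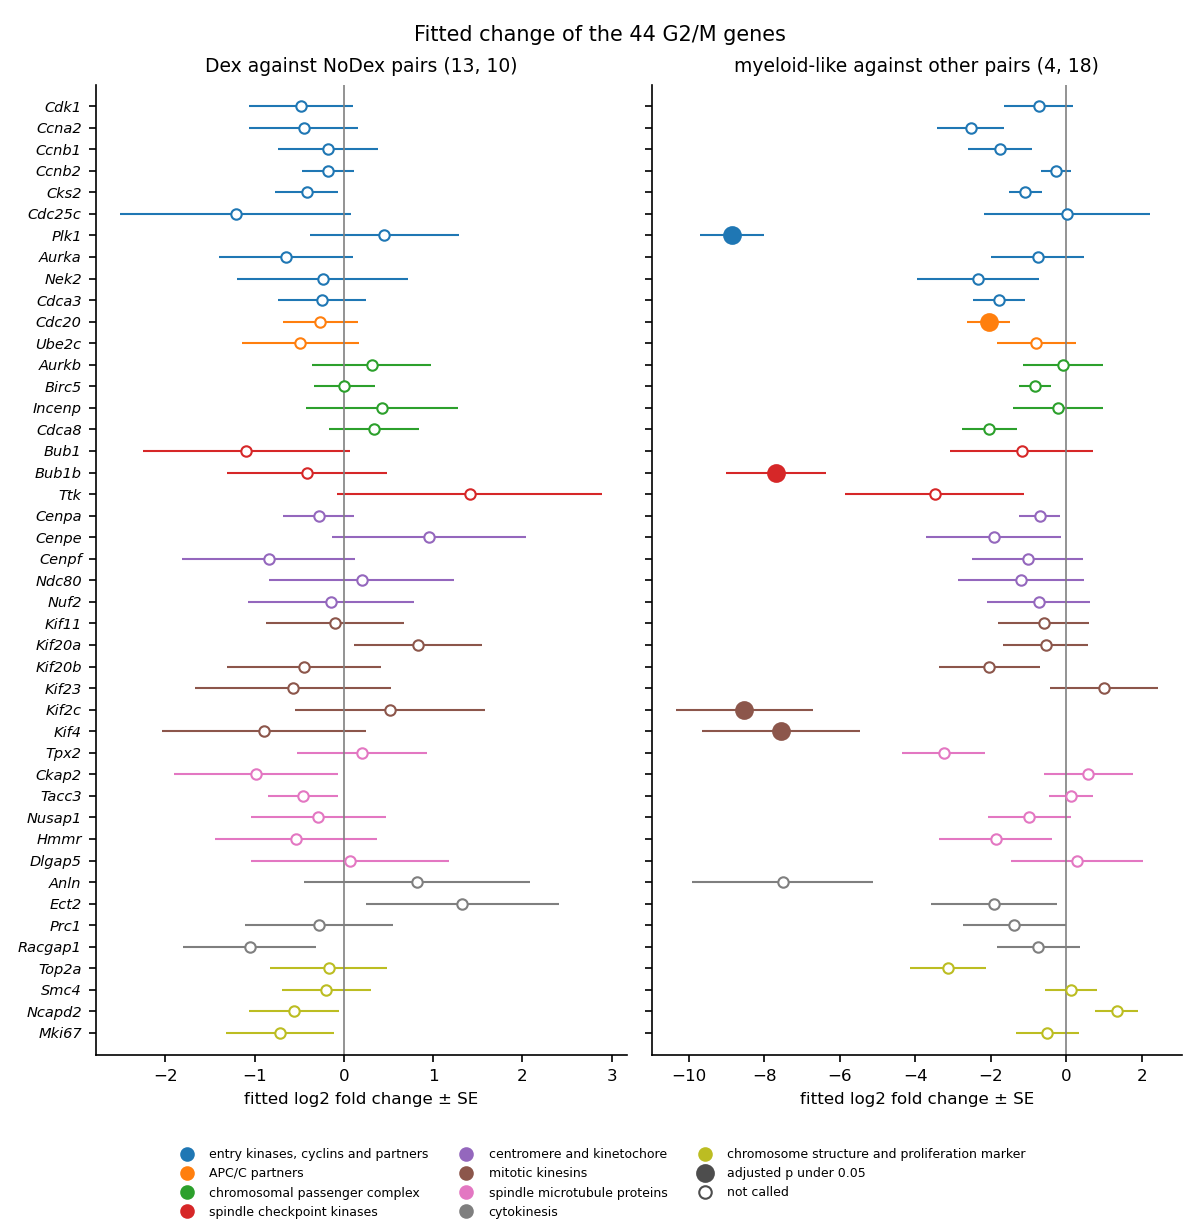
Fitted log2 fold change with its SE (edgeR) of each of the 44 genes, coloured by role, for Dex against NoDex pairs (left) and myeloid-like against other pairs (right, another scale). Large filled points passed an adjusted p of 0.05: 0 genes on the left and 5 on the right, all lower in myeloid-like pairs.

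The second comparison set the 4 myeloid-like pairs against the 18 other pairs, with treatment as a covariate. The G2/M score was 3.19 ± 1.13 in myeloid-like pairs (SD, n = 4) and 6.07 ± 1.18 in other pairs (SD, n = 18), a difference of -2.88. Within plate columns 1 to 4, where both myeloid-like pairs were Dex, the difference was -4.13, and within columns 5 to 7, where both were NoDex, it was -1.26. The pair scores were 2.69 and 1.97 in Dex pairs 6 and 7 and 4.61 and 3.48 in NoDex pairs 9 and 10, against a lowest of 3.57, a median of 6.58 and a highest of 7.32 in other pairs. Myeloid-like cells held 7 to 31 of the 44 genes at 10 CPM, median 17, and other cells 14 to 43, median 37. The G1/S score differed less, at 5.72 ± 0.67 (SD, n = 4) against 6.32 ± 0.87 (SD, n = 18). Library totals had a median of 2422574.5 counts in the 8 myeloid-like and 2773001 in the 36 other libraries, and the myeloid-like libraries held fewer detected genes, at a median of 6753 against 8002. The part of detected genes in these differences was not tested. A pair sum does not show which daughter carried a transcript, so single daughters are given where they differ.

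Exactly 5 of the 44 genes were called, and all 5 fell in myeloid-like pairs. They were Plk1, Bub1b, Kif2c, Kif4 and Cdc20, beside 299 of 9492 genes called (3.15%), 172 of them lower (1.81%). An unadjusted p under 0.05 was reached by 13 of the 44 and by 20.8% of all genes. The fitted change was below 0 for 37 of 44 genes, beside 54.4% of all genes, with a median of -1.05, beside -0.17 for all genes. With edgeR the 5 calls were lost when Mpo above Gata1 in both daughters replaced the marker lists, a rule that counts the mixed Dex pair 10 as myeloid-like and leaves Dex pairs 9 and 12 out. Then 0 of 44 were called, the smallest adjusted p being 0.0642. DESeq2 called 12 and limma 17 of the 44 under the list rule. Leaving out Dex pair 6 or Dex pair 7 left 3 calls each, and leaving out NoDex pair 9 gave 8.

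Plk1 (ENSMUSG00000030867, chr7:122159439-122169873, plus strand, GRCm38) was nearly silent in the myeloid-like pairs. It had 0.835 and 0.198 CPM in Dex pairs 6 and 7 and 1.04 and 1.17 CPM in NoDex pairs 9 and 10, against a lowest of 42.0, a median of 419 and a highest of 1109 CPM in the other pairs. Its groups did not overlap, which held for 1 of the 44 genes and for 0.527% of all genes tested. The 8 myeloid-like daughters held 0 to 4 counts of Plk1 each, 16 in all out of 19563695 counts. Of the 38 libraries outside the myeloid-like pairs 36 reached 10 CPM, the other two being daughters in NoDex pair 8 (1 count) and Dex pair 11 (4 counts). Both daughters of the mixed Dex pair 10 had it, with 261 and 868 counts. The fitted log2 change was -8.85 ± 0.86 (SE, edgeR adjusted p = 4.98e-07), a size that rests on these few counts. It was lower in 4 of 4 pairs, and was called in 11 of 12 alternatives, the exception being the Mpo rule (adjusted p = 0.0856 there).

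The checkpoint kinase Bub1b (ENSMUSG00000040084, chr2:118598211-118641591, plus strand) stood at 0.278 and 1.19 CPM in Dex pairs 6 and 7 and at 0.519 and 0.778 CPM in NoDex pairs 9 and 10, against a lowest of 0, a median of 136 and a highest of 428 CPM in other pairs. The myeloid-like pairs held 14 counts of it in all. It overlapped with the other pairs only through Dex pair 12, which held 0 counts. The fitted change was -7.69 ± 1.32 (SE, edgeR adjusted p = 9.69e-04). Its relative Bub1 was at 0, 0.198, 210 and 0 CPM in the same 4 pairs, against a median of 77.8 CPM in other pairs, and was not called (-1.18 ± 1.90 SE). Ttk was at 23.7, 0, 0 and 0.194 CPM, against a median of 22.8 CPM, and was not called.

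The kinesin Kif2c (ENSMUSG00000028678, chr4:117159639-117182639, minus strand) had 0.557 and 0.595 CPM in Dex pairs 6 and 7 and 0.173 and 0 CPM in NoDex pairs 9 and 10, 6 counts in all, against a lowest of 0.156, a median of 89.7 and a highest of 347 CPM in other pairs. Its fitted change was -8.52 ± 1.81 (SE, edgeR adjusted p = 0.00759). Kif4 (ENSMUSG00000034311, chrX:100625737-100727214, plus strand), the chromosome-bound kinesin of the midzone, had 0.557, 0.397, 0.173 and 0 CPM, 5 counts in all, against a lowest of 0, a median of 72.5 and a highest of 183 CPM. Its fitted change was -7.54 ± 2.09 (SE, edgeR adjusted p = 0.0481), and it was called in 4 of 12 alternatives. Pairs near 0 also occurred among the others: NoDex pair 8 and Dex pair 11 for Kif2c, and NoDex pair 8 and Dex pairs 1, 11 and 12 for Kif4. The other kinesins were not called: Kif20a was at 0.278, 0.793, 154 and 298 CPM, against a median of 218 CPM, and Kif11 at 25.3, 0.992, 91.6 and 321 CPM, against a median of 137 CPM.

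Cdc20 (ENSMUSG00000006398, chr4:118432901-118437352, minus strand) was lowered and not silent. It had 43.7 and 41.1 CPM in Dex pairs 6 and 7 and 377 and 130 CPM in NoDex pairs 9 and 10, against a lowest of 122, a median of 695 and a highest of 1120.3 CPM in other pairs, a fitted change of -2.06 ± 0.56 (SE, edgeR adjusted p = 0.0456). In each myeloid-like pair 1 daughter carried nearly all of it: 152 and 5 counts in the daughters of Dex pair 6, 206 and 1 in Dex pair 7, 5 and 2175 in NoDex pair 9, 666 and 5 in NoDex pair 10. Among the other pairs such a split was seen in NoDex pair 5 (287 and 7) and in Dex pairs 11 (635 and 7) and 12 (5 and 411). Cdc20 was called in 6 of 12 alternatives. Ube2c, its partner, was at 5.01 and 2.78 CPM in the Dex and at 914 and 5.64 CPM in the NoDex myeloid-like pairs, against a median of 409 CPM, and was not called.

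**Figure D3:**
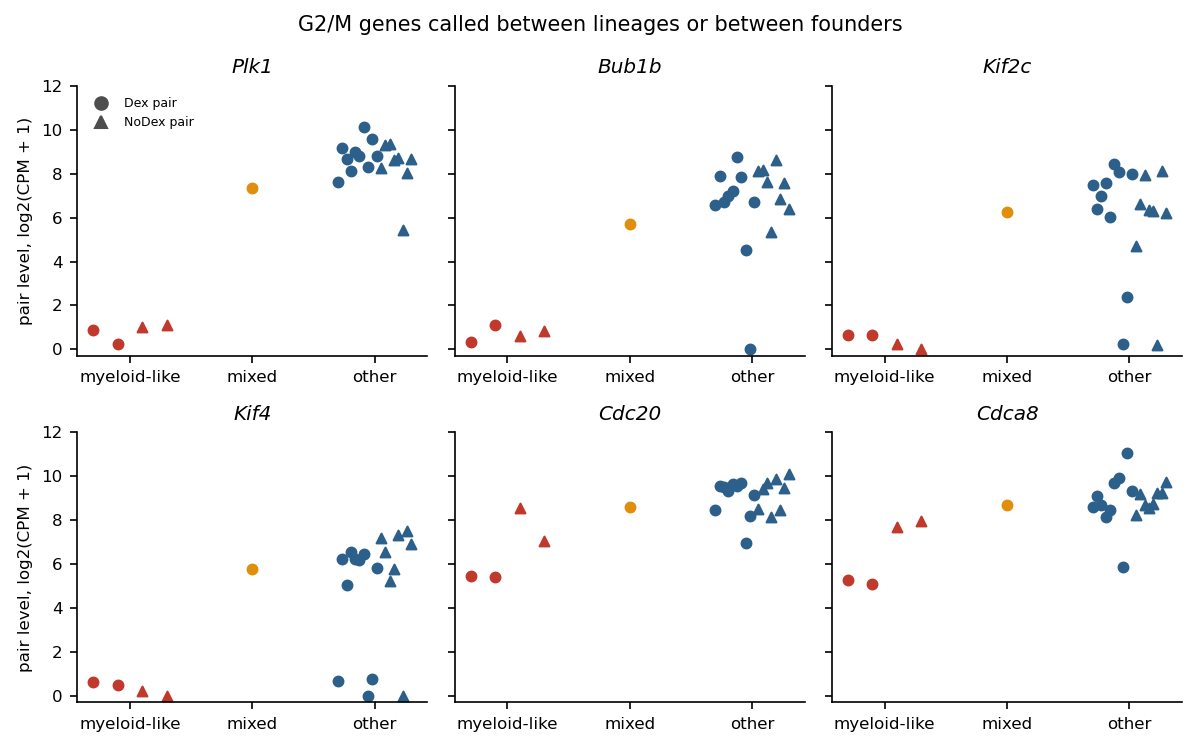
Pair levels, log2(CPM + 1), of the 6 genes called in the lineage test or in the test between founders, in the 4 myeloid-like pairs, the mixed Dex pair 10 and the 18 other pairs (circles Dex, triangles NoDex). Plk1 is the 1 gene of the 6 whose myeloid-like pairs all lie below every other pair. Plk1, Bub1b, Kif2c and Kif4 lie below 1.2 in each myeloid-like pair, and Cdc20 and Cdca8 lie above 5.

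Besides Plk1, Bub1b, Kif2c and Kif4, Anln reached 10 CPM in 0 of 8 myeloid-like libraries, and each other gene of the module did so in at least 1. Anln encodes anillin, a scaffold of the contractile ring. Its highest myeloid-like pair level was 0.194 CPM, against a median of 12.8 and a highest of 86.3 CPM in other pairs, where 17 of 36 libraries reached 10 CPM. Its fitted change was -7.51 (edgeR unadjusted p = 0.00470, adjusted p = 0.0950), so it was not called. The 4 genes named before it reached 10 CPM in at least 18 of 36 other libraries, a limit set after the values were seen and which Anln misses by 1 library. Of the 4559 genes of the lineage test that did so in at least 18 other libraries, 4.08% were likewise at 0 of 8, and of the G2/M genes 4 of 40 were. At the other end, Cks2 and Ncapd2, a condensin subunit, reached 10 CPM in all 8 myeloid-like libraries, and Birc5 and Smc4 in 7 of 8. Ncapd2 had the highest fitted change of the 44, 1.33 ± 0.58 (SE, edgeR adjusted p = 0.202). Tacc3 was at 68.7, 67.8, 859 and 655 CPM, against a median of 388 CPM, with a fitted change of 0.13 ± 0.59 (SE).

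The second daughter of NoDex pair 9 shows the split within a cell. Its score was 5.85, it held 31 of the 44 genes at 10 CPM or more, and it carried 2175 counts of Cdc20 and 1170 of Cdca8. It also held 4 counts of Plk1, 1 of Bub1b, 1 of Kif2c and 0 of Kif4 out of 3260633. The split was also seen outside the myeloid-like pairs, in the second daughter of NoDex pair 8. That daughter held 1 count of Plk1, 3 of Bub1b, 1 of Kif2c and 0 of Kif4 out of 2827505. It carried 968 counts of Cdc20 and 3255 of Cdca8, and its erythroid mean was 7.12 log2(CPM + 1).

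Of 94 other genes of mitosis that were tested, 2 were called between lineages, and both were lower in myeloid-like pairs: Gtse1, a microtubule-associated regulator of p53 (-6.01 ± 1.65 SE, edgeR adjusted p = 0.0460), and Sapcd2, a regulator of spindle orientation (-7.78 ± 1.75 SE, adjusted p = 0.0120). Their median change was -0.37. Of 40 G1/S genes 0 were called, with a median of 0.06. Over all genes of the lineage test 3.15% were called. Between treatments 0 of 87 and 0 of 40 were called.

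The third comparison asked how far the 2 daughters of a founder were out of phase, as read from the score. Whether a difference in score is one of cycle phase was not tested. Sisters were mostly alike in score. The absolute difference between sisters was 0.750 ± 0.511 in Dex pairs (SD, n = 13) and 0.709 ± 0.758 in NoDex pairs (SD, n = 10). Cells of different founders of the same treatment differed by 2.08 on average in Dex (312 pairings of cells) and by 1.51 in NoDex (180 pairings). The sisters' scores went together across founders (Pearson r = 0.83, Spearman rho = 0.86, n = 23 pairs), also in the 18 other pairs (r = 0.81, rho = 0.82). In those, sisters differed by 0.705 ± 0.572 in Dex (SD, n = 10) and 0.508 ± 0.488 in NoDex pairs (SD, n = 8), against 1.56 and 1.01 between founders. The values differed by plate column. In columns 1 to 4 sisters differed by 0.459 ± 0.369 in Dex (SD, n = 8) and 0.516 ± 0.505 in NoDex pairs (SD, n = 6), against 2.33 and 1.17 between founders. In columns 5 to 7 they differed by 1.22 ± 0.32 in Dex (SD, n = 5) and 0.999 ± 1.055 in NoDex pairs (SD, n = 4), against 1.57 and 1.78 between founders, so the order of the treatments turned between the column sets. Sisters also shared a well and a plate column, which cannot be told apart from their founder.

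A difference over 1 occurred in 6 of 23 pairs, 4 Dex and 2 NoDex, and one under 0.5 in 9, 4 Dex and 5 NoDex. The pairs furthest apart were Dex pair 12 with 2.75 and 4.39, Dex pair 11 with 4.53 and 3.14, Dex pair 13 with 6.59 and 5.41, Dex pair 10 with 5.11 and 6.19, NoDex pair 9 with 3.37 and 5.85, and NoDex pair 8 with 4.64 and 3.17. Of these, 1 was myeloid-like and 1 mixed. The 4 Dex pairs were the 4 pairs of plate column 7, which held no NoDex pair, and the 9 Dex pairs of columns 3, 4 and 6 differed by 0.983 at most. The part of the plate column was not tested. Detected genes were, in the same order, 3886 and 5327, 6029 and 6140, 7299 and 6858, and 7902 and 9473 in the Dex pairs. In NoDex pair 9 they were 6535 and 7051, and in NoDex pair 8 7472 and 6862. The sister with the higher score held more detected genes in each of these pairs but Dex pair 11. The part of detected genes was not tested. The first daughter of Dex pair 12 was also the library with the fewest counts (210383) and the fewest genes (3886). After thinning each library to 200000 reads these 6 differences were, in the same order, 1.59, 1.38, 1.24, 1.39, 2.71 and 1.40. The largest moves were in Dex pair 10, from 1.08 to 1.39, and in NoDex pair 9, from 2.49 to 2.71. Among the closest pairs were NoDex pair 13 (6.34 and 6.39), Dex pair 3 (6.94 and 6.89) and Dex pair 4 (6.87 and 6.94).

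**Figure D4:**
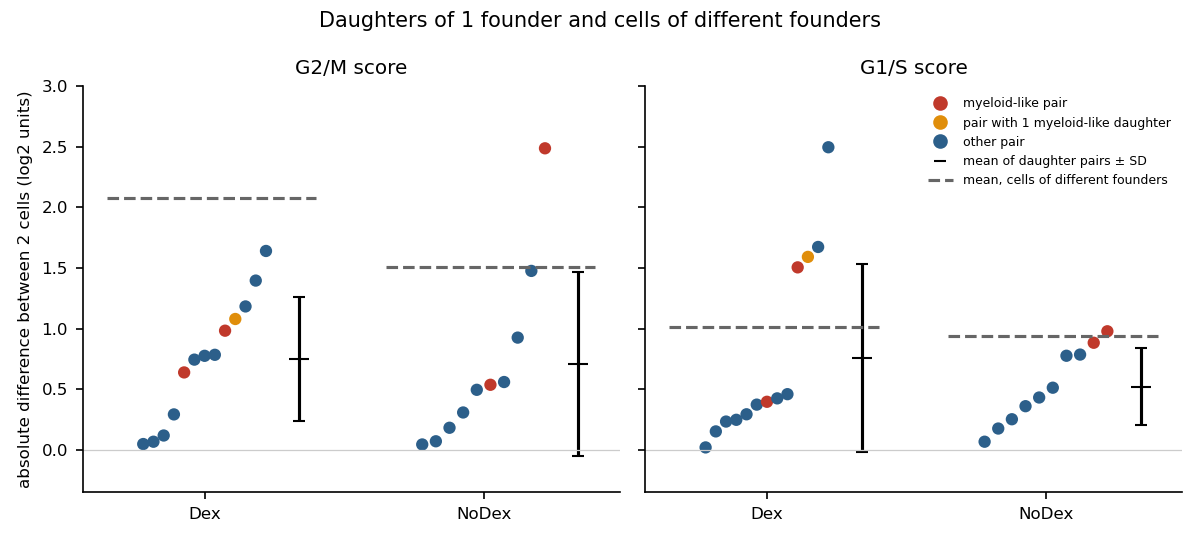
Absolute difference between the 2 daughters of each pair (points, coloured by lineage class) in the G2/M score (left) and the G1/S score (right), Dex before NoDex, with the mean and SD of the pairs and the mean over cells of different founders (dashed). For the G2/M score each Dex pair lies below the dashed line at 2.08, and 1 NoDex pair lies above that at 1.51.

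The G1/S score was set beside the G2/M score. Sisters differed in it by 0.759 ± 0.777 in Dex pairs (SD, n = 13) and by 0.523 ± 0.317 in NoDex pairs (SD, n = 10), against 1.01 and 0.940 between founders. The signed differences of the 2 scores between sisters went together at r = 0.35 (rho = 0.38, n = 23), and at r = 0.72 (rho = 0.67) in the 18 other pairs. In most of those the sister lower in G2/M genes was lower in G1/S genes as well. The opposite was seen in NoDex pair 11 and Dex pairs 2, 3, 4 and 8. Dex pair 12, with the shallowest library, had the largest differences of the other pairs, -1.64 in G2/M and -2.50 in G1/S. The correlation was not computed without it. In NoDex pair 8 the G2/M score was low in both daughters while the G1/S scores were 7.37 and 6.58. In NoDex pair 9 they crossed: the sister with the higher G2/M score, 5.85, had the lower G1/S score, 4.32 against 5.30.

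Of the 44 genes, 2 were called as differing between founders beyond the difference of sisters: Plk1 (edgeR adjusted p = 0.00804) and Cdca8 (ENSMUSG00000028873, chr4:124918465-124939311, minus strand, adjusted p = 0.0109), beside 271 of 8015 genes (3.38%). An unadjusted p under 0.05 was reached by 11 of the 44 and by 19.6% of all genes. Sisters differed in Plk1 by 1.54 on average, and cells of different founders by 3.55 (log2(CPM + 1)). Without the pairs that hold a myeloid-like daughter the Plk1 call was lost (adjusted p = 1.00), and Cdca8 was called (adjusted p = 0.00500). Without Dex pair 12 the Cdca8 call was lost (adjusted p = 0.838), and without NoDex pair 9 Aurkb was called as well (adjusted p = 0.0125). Comparing founders only within plate columns, edgeR called Plk1 and not Cdca8 (adjusted p = 0.0172 and 0.273). The next smallest p-values belonged to Aurkb, Bub1 and Ube2c, none called, with adjusted p of 0.0919, 0.133 and 0.155.

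Cdca8 had 38.4 and 33.5 CPM in Dex pairs 6 and 7, 203 and 249 CPM in NoDex pairs 9 and 10, and 57.9 to 2171 CPM with a median of 487 in other pairs. The 2171 CPM belong to Dex pair 12, whose first daughter held 2715 counts of it among 210383. Of 93 other mitosis genes 2 were called in the same test, Cks1b, a subunit of the cyclin-dependent kinase (adjusted p = 0.0272), and Ccnf, a cyclin and F-box protein (adjusted p = 0.0347). Of 40 G1/S genes 1 was called, Ccne1, the E-type cyclin (adjusted p = 0.0471). Over all genes of this test 3.38% were called.

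For 40 of the 44 genes sisters differed less on average than founders, beside 79% of the 8015 genes. The ratio of both differences had a median of 0.733, from 0.435 for Plk1 to 1.06 for Ncapd2, beside 0.865 for all genes. The 4 genes at or above 1 were Ccnb2, Kif23, Ect2 and Ncapd2. Single genes were often split between sisters. Kif20b was at exactly 0 counts in 1 daughter and at 10 CPM or more in its sister in 7 of 23 pairs, and Cdc25c, Kif23 and Ect2 in 6 each. Cdc25c encodes the phosphatase that frees Cdk1, Kif23 the kinesin of centralspindlin and Kif20b a midzone kinesin. Cdk1, Ccnb1, Plk1, Cdc20 and Bub1b had 0 such pairs, and yet were split in some pairs with a few counts in the lower sister. Plk1 held 4 and 1654 counts in the daughters of Dex pair 11 and 269 and 1 in NoDex pair 8, Ccnb1 1485 and 4 in Dex pair 11, and Cdk1 2 and 740 in NoDex pair 10. Bub1b held 857 and 1 counts in the daughters of Dex pair 9, 1 and 613 in Dex pair 1, 1638 and 23 in NoDex pair 1 and 741 and 3 in NoDex pair 8.

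**Figure D5:**
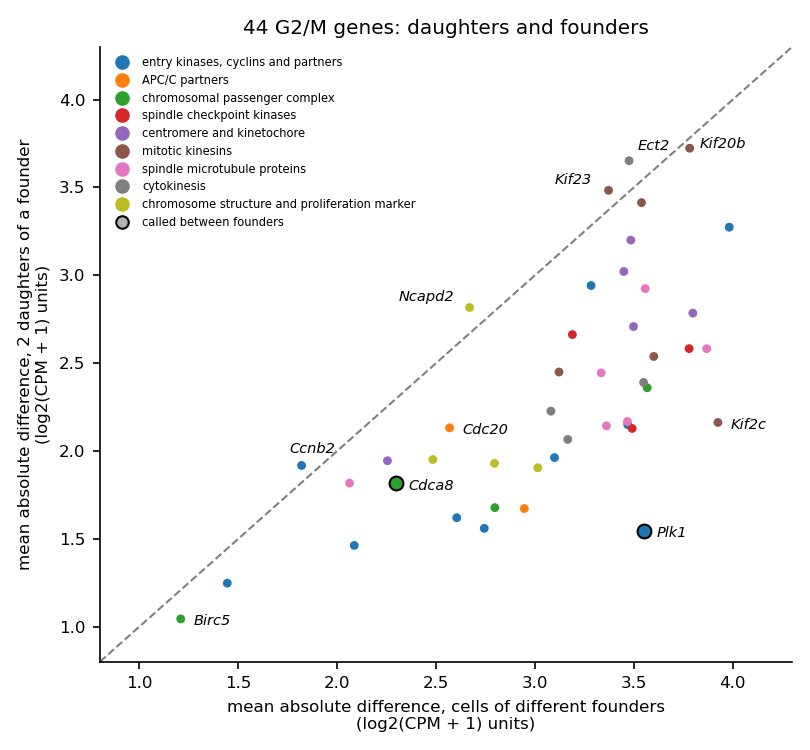
Mean absolute difference of each of the 44 genes between the 2 daughters of a founder (vertical) against that between cells of different founders of the same treatment (horizontal), both in log2(CPM + 1) units, coloured by role, with the line of equality. Of the genes, 40 lie below the line, and Plk1, one of the 2 genes outlined in black, lies furthest below it with a ratio of 0.435.

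The role groups of the module did not all shift together between sisters. Over 36 combinations of 9 role groups, the sister differences of group means correlated at -0.21 to 0.68, with a median of 0.22 (n = 23 pairs, cells of a pair sharing a library plate column). The entry kinases and the APC/C partners went together most (r = 0.68, rho = 0.52), then the mitotic kinesins and the cytokinesis genes (r = 0.59, rho = 0.55). The lowest value was between the chromosomal passenger complex and the chromosome structure genes (r = -0.21, rho = -0.18). Group levels followed the order of the score: the entry kinases were at 3.40 ± 1.46 in myeloid-like (SD, n = 4) and 6.94 ± 1.24 in other pairs (SD, n = 18), the mitotic kinesins at 1.97 ± 0.49 and 5.04 ± 1.55, the cytokinesis genes at 1.75 ± 0.98 and 4.60 ± 1.53. The chromosome structure genes differed least, at 5.73 ± 1.32 and 7.17 ± 1.41.

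Each gene was set against the score across the 46 libraries, the score including the gene itself. Aurka, the Aurora kinase of the spindle poles, followed it most closely (r = 0.80), then Plk1 (0.79), Ccnb1 (0.79) and Top2a (0.78). Incenp (0.29) and Ncapd2 (0.05) followed it least. Of 8015 genes, the 8 outside the list with the highest r were Ccnf (0.82), 1700021F05Rik (0.79), Steap3, a ferrireductase of erythroid iron uptake (0.78), Tprkb (0.76), Ccnb1-ps (0.76), Gypc, a red cell membrane glycophorin (0.75), Ckap2l, a spindle protein (0.75), and Larp4b (0.75). Points of 1 pair share a founder. Across cells the score had r = 0.63 with the mean of the erythroid markers and r = -0.57 with that of the myeloid markers (n = 46), and in the 36 cells of other pairs r = 0.17 and r = -0.16.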

How the data were processed

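RNA was measured in 52 single-cell libraries, 26 from Dex and 26 from NoDex pairs. The authors deposited whole-number counts of reads per gene, not normalized, in 1 table per treatment. STAR 2.4, featureCounts and the genome build GRCm38 are named per the submitters' processing notes. How strand and reads matching several genes were handled is not given in the sources, nor is the library kit, so overlapping genes and near-identical copies carry an uncertain split. No molecular identifiers are mentioned, so reads are not independent molecules. All 52 columns matched 1 sample each, and 0 were left unused. No 2 libraries held identical values.

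In the treatment and lineage tests the pair was the replicate. Their p-values measure the spread between founders and wells, which may be technical. Pair sums were tested with edgeR 4.0.16 in R 4.3.3 (TMM, filterByExpr with a minimum count of 10 and a minimum total of 15, glmQLFit, glmQLFTest). Each SE was taken from the log2 fold change and its F statistic (fold change over the root of F). The test between founders used single libraries, 1 term per pair within treatment, and genes with 5 counts in at least 10 libraries. Its p-values are set against the spread between sisters. limma 3.58.1 on log2(CPM + 1) and DESeq2 1.42.0 were alternatives, beside other scalings, filters, plate sets, lineage rules and left-out pairs. Scores are descriptions without a test. The steps were tested on simulated counts. Gene locations came from GENCODE M21 and promoters from RefSeq. Random thinning used a fixed seed.

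Named were the 3 genes of each role with the highest mean log2(CPM + 1), the 5 smallest p-values of each of the treatment, lineage and founder tests, every gene called, and the 8 genes most like the score. The 44 genes, all lists and the markers were chosen with earlier results of these data known. Dexamethasone effects cannot be told apart from effects of single plate columns, since only column 6 held both treatments.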

Additional observations from a re-analysis of the deposited data

Results flagged for a closer look

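The G2/M score of NoDex pair 8 was 3.91, far below the 6.12 to 6.98 of the other 7 NoDex pairs without a myeloid-like daughter. Its daughters held 3602360 and 2827505 counts, and the mean of their erythroid markers was 7.09 and 7.12 log2(CPM + 1). The level of Cdca8 in Dex pair 12 was 2171 CPM, against 57.9 to 982 CPM in the other 9 Dex pairs without a myeloid-like daughter, and its first daughter had the fewest counts of the 46 libraries kept, 210383. Of 32 sets of values examined this way, 2 held such a pair, and chance flags about 1 in 20.

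Both remaining results come from libraries in no pair kept, since the sister library was nearly empty. The G2/M score was 6.95 in the second daughter of NoDex pair 7 (225519 counts) and 6.04 in the first daughter of NoDex pair 12 (4204860 counts). Both lie within the range of the 16 NoDex libraries of pairs without a myeloid-like daughter, 3.17 to 7.13.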

How the results depend on the processing

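Between treatments 0 of the 44 genes were called in each of 33 alternatives, and in each of 5 for pairs without a myeloid-like daughter. The number below 0 was 24 to 36 and 23 to 30. With the pair number as a replicate block (20 pairs with 10 numbers in both groups) 0 were called. The labels give these numbers no shared source, and the deviations of same-numbered pairs correlated at -0.13 to 0.17 over 7190 genes, with 2 of 10 above 0.1 and 1 of 10 Dex pairs closest to its own number.

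Between lineages the 5 calls became 3 with the near-empty libraries, 12 with DESeq2, 17 with limma and 0 with Mpo against Gata1, and 3 to 8 when single pairs were left out. RLE size factors gave 4 calls. The median log2 fold change of all genes was -0.71 with limma, against -0.17 in edgeR, and that of the 44 was -2.68 and -1.05. Between treatments limma gave -0.15 for all genes and -0.48 for the 44, and -0.37 and -0.35 without myeloid-like daughters. Between founders the 2 calls became 10 with limma, 1 within plate columns and 1 without myeloid-like daughters. Without Dex pair 12 there was 1 call, and without NoDex pair 9 there were 3. For these changes the cause was not tested. Leaving out Dex pair 12 or NoDex pair 9 was chosen after seeing the data.

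Under other scalings, filters, thinning and left-out pairs the score difference between treatments was -0.53 to -0.33, and that between lineages -3.03 to -1.77, the smallest with log2(CPM + 10). The mean difference between sisters was then 0.519 to 0.757 in Dex and 0.444 to 1.03 in NoDex pairs, the highest with NoDex pairs 7 and 12 put back. Splitting these scores by plate columns, also chosen after seeing the data, moved them further. In columns 1 to 4 and 5 to 7 the treatment difference was -0.73 and -0.15, the lineage difference -4.13 and -1.26, and the sister difference 0.459 and 1.22 in Dex and 0.516 and 0.999 in NoDex pairs. With 4 myeloid-like pairs, genes at 0 in many cells and a wide spread between founders, changes may have gone undetected in each comparison. Such changes need not be small, since the SE of the fitted log2 change between treatments was 1.16 for Bub1 and 1.49 for Ttk. The part of sequencing depth in this was not tested.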

Other observations

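The near-empty libraries, which enter no comparison, still carried G2/M reads. The score was 4.86 in the first daughter of NoDex pair 4 (13575 counts), 3.85 in the first daughter of NoDex pair 7 (5733 counts) and 3.85 in the second daughter of NoDex pair 12 (11791 counts). Of the 44 genes, 28, 21 and 23 reached 10 CPM in these libraries, where a single count is worth more than 10 CPM. The second daughter of NoDex pair 4 held 0 counts.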
